A study of Mus musculus with 2 samples.

Results

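The genes described here encode the subunits of voltage-gated sodium and calcium channels. They were picked by gene symbol alone: symbols of the Scn, Cacna1, Cacna2d, Cacnb and Cacng families, which gave 40 genes of the 40276 features in the deposited lists. They comprise 10 sodium channel alpha subunits, 4 sodium channel beta subunits, 10 calcium channel alpha1 subunits, 4 alpha2delta subunits, 4 calcium channel beta subunits and 8 gamma subunits. All 40 had counts in both sections.

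The samples were 1 section of a normal mouse brain and 1 section of a normal mouse heart, each 5 µm thick and cut from formalin-fixed, paraffin-embedded tissue. Total RNA was copied with random primers and read with a spatial barcode by spRandom-seq, which does not depend on poly(A) tails. Both samples carry the same treatment label, reverse transcription with a primer that lacks a second cell barcode, and the labels give no strain, age, sex or genotype. Each tissue had 1 library, so differences have no replicate check and only counting error is given, without tests.

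Barcodes with at least 500 counts and 200 features were kept as spots, 4080 in brain with 37143546 counts and 3726 in heart with 44613867 counts. The median was 5981 counts per spot in brain and 9050 in heart. The same 4992 barcodes were listed for both sections, and 3342 of them were kept in both. Ribosomal, mitochondrial and small structured RNA took 36.2% of kept counts in brain and 56.6% in heart, which bears on every value scaled to the total. The labelled tissues were checked by their markers: 8 of 8 neuronal genes were at least 4-fold higher in brain, with 3393 CPM in brain and 142 CPM in heart in sum, and 8 of 8 cardiomyocyte genes were at least 4-fold higher in heart, with 615 CPM in brain and 25189 CPM in heart in sum. CPM is a gene's share of all counts in the kept spots of a section, scaled to 1000000. In bulk sums such as these, fewer cells of a type and less RNA per cell cannot be told apart.

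Voltage-gated sodium channels carry the fast inward current that starts and spreads the action potential in neurons and in working heart muscle. A large alpha subunit forms the pore, and small beta subunits adjust its gating and surface level and bind other membrane proteins. Voltage-gated calcium channels turn depolarisation into calcium entry, which triggers transmitter release at synapses and contraction in the heart. Their alpha1 subunit forms the pore and sets the current type (L, P/Q, N, R or T), while alpha2delta and beta subunits carry the complex to the membrane and tune it. Not every gene with such a symbol encodes a voltage-gated channel. Scn7a encodes a sodium channel that responds to extracellular sodium, and most Cacng genes encode auxiliary subunits of AMPA-type glutamate receptors rather than of calcium channels.

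Set against heart, the brain section held a larger share of channel transcripts: the 40 genes summed to 188707 counts in brain and 100176 in heart, or 5080 CPM in brain and 2245 CPM in heart. A gene was called higher in a section when its CPM there was at least 4-fold that of the other section and at least 20. By this rule 19 of the 40 genes were higher in brain, where 17.2% of the 6345 features with 20 CPM in either section met it. In heart 1 of the 40 was higher, where 5.41% of those features met the rule. Of the 40 genes, 30 reached 20 CPM in a section, so 19 of 30, or 63.3%, were called for brain. Ratios of brain over heart were above 1 for 31 genes and below 1 for 9. The median log2 ratio of the 40 genes was 2.01, beside 0.43 over the 11925 features whose CPM averaged 5 or more over the sections and 0.49 over the 10616 protein-coding genes among them. When counts were scaled to the total outside ribosomal, mitochondrial and small structured RNA, the median of all features was -0.31, that of the 40 genes was 1.46, and 16 of them were higher in brain and 2 in heart. The share of all features called with that total is not given here.

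**Figure D1:**
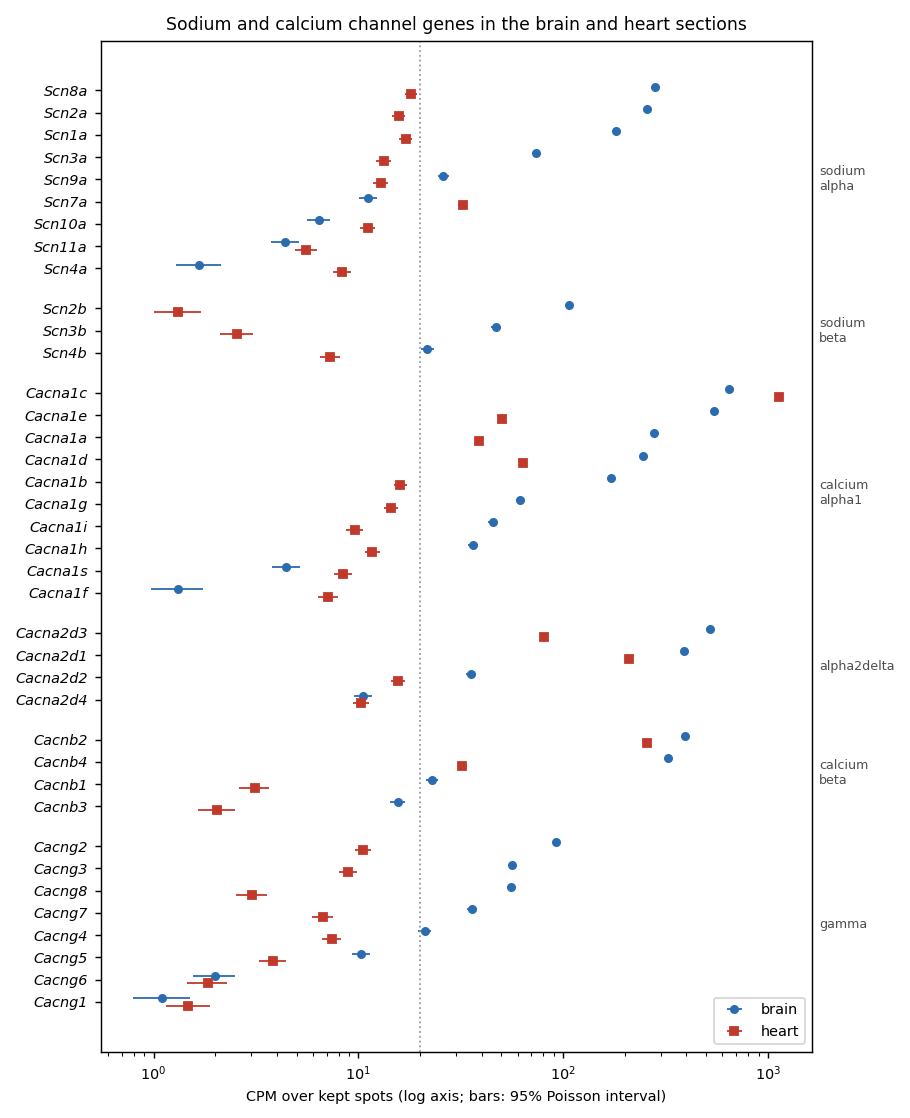
CPM of 38 channel genes in the brain section (circles) and the heart section (squares), on a log axis, grouped by subunit class and ordered by the brain value within a class. Bars are 95% Poisson intervals for counting error and the dotted line marks 20 CPM. Scn2b has its brain value furthest to the right of its heart value, while Scn7a and Cacna1c lie further right in heart.

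Counts also fell on genes of olfactory and vomeronasal receptors, which are known mainly from the nose, and these served as the measure of a low level present in both sections. These 1490 genes span 12806 kb and had 2.49 counts per kb of span in brain and 3.86 in heart. The same genes had 5.80 counts per kb of exon in brain and 8.97 in heart. In brain 31 of the 40 genes lay at or above 2 times receptor density per kb of span, a level reached by 57.2% of 21771 protein-coding genes. In heart 12 of the 40 did so, where 48.4% of protein-coding genes did. Per kb of exon 38 of the 40 genes in brain and 39 in heart did so, where 74.1% and 72.7% of protein-coding genes did, so how far a gene stood above receptor genes depended on the length used. Of the 19 genes called for brain, 16 were under 2 times receptor density per kb of span in heart, and 1, Scn2b, per kb of exon. Below, receptor density is per kb of span unless exon is named. Across the 40 genes, CPM followed gene span closely (Spearman's rho of 0.697 in brain and 0.907 in heart, a description over genes of the same library). Over the 21771 protein-coding genes rho was 0.732 in brain and 0.758 in heart. For this reason levels of different genes are compared per kb only, once per kb of exon and once per kb of span, and an order within a class is given with both.

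**Figure D2:**
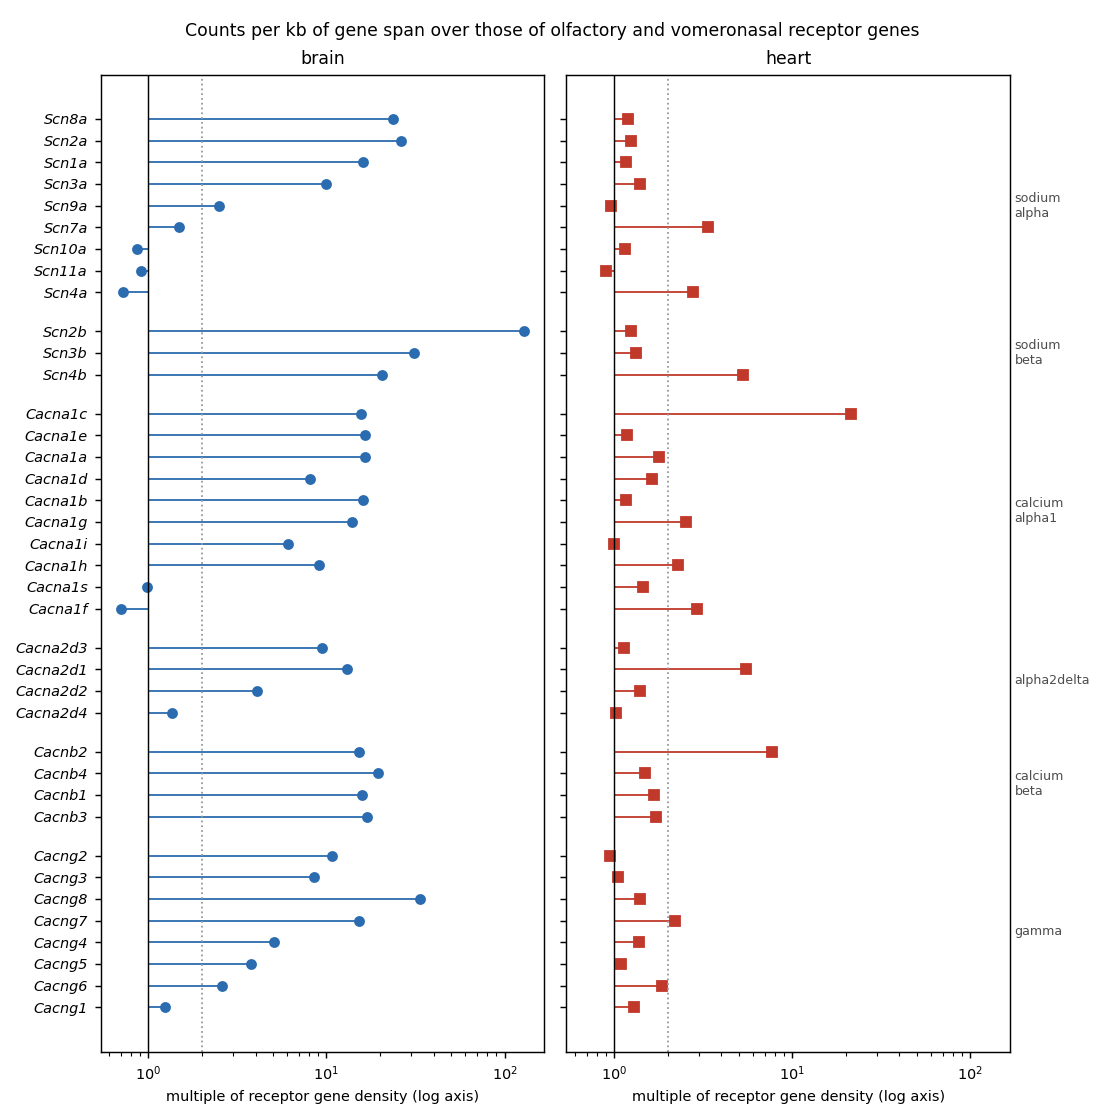
Counts per kb of gene span of 38 channel genes, divided by the density over olfactory and vomeronasal receptor genes of the same section, in brain (left) and heart (right), on log axes. The solid line marks 1 and the dotted line 2 times receptor density. In brain most genes lie beyond the dotted line, and in heart Cacna1c, Cacnb2, Cacna2d1 and Scn4b lie the furthest right.

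Of the 10 sodium channel alpha subunits, 4 were higher in brain. The 4 were Scn1a, Scn2a, Scn3a and Scn8a, the alpha subunits of central neurons, and Scn3a was not called with the total outside ribosomal, mitochondrial and small structured RNA. Scn8a, found at nodes of Ranvier and axon initial segments, had 10416 counts in brain and 809 in heart, which gave 280.4 CPM in brain and 18.1 CPM in heart and a 15.5-fold (14.4 to 16.6) difference with its 95% interval for counting error, as for all ratios below. Scn2a, of excitatory neurons and unmyelinated axons, had 9578 counts in brain and 701 in heart, or 258 CPM in brain and 15.7 CPM in heart, 16.4-fold (15.2 to 17.7) higher in brain. Scn1a, prominent in inhibitory interneurons, had 6765 counts in brain and 761 in heart, or 182 CPM in brain and 17.1 CPM in heart, a 10.7-fold (9.91 to 11.5) difference. In heart these 3 genes stood at 1.19, 1.24 and 1.16 times receptor density per kb of span and at 5.72, 6.13 and 7.61 times per kb of exon. Scn3a, which is best known from the developing brain, had 73.4 CPM in brain and 13.3 CPM in heart, 5.52-fold (5.05 to 6.04) higher in brain. Per kb of exon and per kb of span alike, Scn2a ranked first among brain alpha subunits, followed by Scn8a, Scn1a and Scn3a. Scn2a made up 30.3% of the class per kb of exon and 31.2% per kb of span.

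Scn7a, the sodium-sensing relative, had 415 counts in brain and 1442 in heart, or 11.2 CPM in brain and 32.3 CPM in heart, 2.89-fold (2.59 to 3.23) higher in heart and short of the 4-fold rule. Its log2 ratio of brain over heart was -1.53, and it was -2.09 with the total outside ribosomal, mitochondrial and small structured RNA and -2.62 with receptor density per kb of span subtracted, both of which met the rule. The Scn7a intervals of the sections did not overlap, and its density was 1.49 times that of receptors in brain and 3.35 times in heart.

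The alpha subunits of other excitable tissues were low. Scn9a, best known from sensory and sympathetic neurons, had 26.0 CPM in brain and 12.9 CPM in heart, at 2.50 times receptor density in brain and 0.960 times in heart. An antisense gene, Gm13629, covers 65.95 kb of Scn9a on the opposite strand and had 1239 counts in brain and 428 in heart. Whether strand was used in counting is not given in the sources used here, so reads of the pair may be shared. Scn10a and Scn11a, of pain-sensing sensory neurons, had 6.41 and 4.39 CPM in brain, with 11.1 and 5.56 CPM in heart. Their densities lay between 0.861 and 1.16 times that of receptors in both sections per kb of span and between 4.66 and 6.92 times per kb of exon, and the sign of the Scn11a ratio turned when receptor density per kb of span was subtracted. A list of 9 peripheral neuron markers summed to 17.7 CPM in brain and 17.8 CPM in heart, with Slc18a3 at 0 in both. Scn4a, the sodium channel of skeletal muscle, had 62 counts in brain and 372 in heart, or 1.67 CPM in brain and 8.34 CPM in heart, at 0.716 times receptor density in brain and 2.78 times in heart. The 8 skeletal muscle markers summed to 10.8 CPM in brain and 215 CPM in heart, 6 of them under 2 times receptor density in each section. Only 1 of the 8 reached 20 CPM in a section, and it was called for heart. The heart sum therefore does not describe the list as a whole. Their part in the Scn4a value was not tested.

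The sodium channel beta subunits Scn2b, Scn3b and Scn4b all had a higher CPM in brain, and Scn2b and Scn3b met the rule. Scn2b, which binds the alpha subunit through a disulfide bond, had 3954 counts in brain and 59 in heart. This corresponded to 106 CPM (103 to 109.8) in brain and 1.32 CPM (1.01 to 1.71) in heart, an 80.5-fold (62.3 to 106) difference and the largest ratio among the 40 genes. Its brain density was 129 times that of receptors, the highest of the 40 genes per kb of span, though not per kb of exon, and its heart density 1.24 times. Gm10684 lies within Scn2b on the opposite strand over 12.29 kb and had 121 counts in brain and 125 in heart, so in heart it held more counts than Scn2b itself.

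Scn3b, a non-covalently bound subunit that promotes the surface level of the channel, had 46.8 CPM in brain and 2.56 CPM in heart, 18.3-fold (15.2 to 22.3) higher in brain. Scn4b, the subunit linked to resurgent current, was closer between the sections, with 21.7 CPM in brain and 7.26 CPM in heart and a ratio of 2.99-fold (2.63 to 3.41), below the rule. It kept 5.33 times receptor density in heart, while Scn2b and Scn3b were at 1.24 and 1.32 times there. In brain Scn2b ranked first in the class per kb on both length measures, with 41.5% per kb of exon and 55.7% per kb of span, and Scn3b stood ahead of Scn4b on both.

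Scn2b and Scn4b are neighbours on chromosome 9, on the same strand and with no protein-coding gene between them, yet their ratios were 80.5 and 2.99. Cacng7 and Cacng8, of the gamma class, are a second such pair, on chromosome 7, with ratios of 5.37 and 18.5. Their promoters, 300 bases around the start of transcription (250 before it and 50 after it), are shown to set the sequences of each pair side by side. They were taken from RefSeq on build GRCm38.p6, which is older than the build of the counts, and are printed 5′ to 3′ with each CpG in capitals. They lie at chr9:45117626-45117925, + strand, chr9:45138374-45138673, + strand, chr7:3332575-3332874, + strand and chr7:3393792-3394091, + strand, in the order printed.

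Scn2b: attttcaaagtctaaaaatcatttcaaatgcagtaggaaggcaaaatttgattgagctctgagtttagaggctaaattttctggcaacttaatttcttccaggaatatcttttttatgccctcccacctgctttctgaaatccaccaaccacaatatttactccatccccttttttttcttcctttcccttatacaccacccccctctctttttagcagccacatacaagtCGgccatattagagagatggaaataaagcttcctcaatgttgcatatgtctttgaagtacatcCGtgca
Scn4b: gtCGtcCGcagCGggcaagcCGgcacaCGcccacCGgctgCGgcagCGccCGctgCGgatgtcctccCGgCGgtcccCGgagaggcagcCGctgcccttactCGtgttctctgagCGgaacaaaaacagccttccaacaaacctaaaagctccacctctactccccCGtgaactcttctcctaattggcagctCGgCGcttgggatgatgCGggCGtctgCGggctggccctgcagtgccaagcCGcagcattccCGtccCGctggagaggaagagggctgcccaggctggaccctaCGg
Cacng7: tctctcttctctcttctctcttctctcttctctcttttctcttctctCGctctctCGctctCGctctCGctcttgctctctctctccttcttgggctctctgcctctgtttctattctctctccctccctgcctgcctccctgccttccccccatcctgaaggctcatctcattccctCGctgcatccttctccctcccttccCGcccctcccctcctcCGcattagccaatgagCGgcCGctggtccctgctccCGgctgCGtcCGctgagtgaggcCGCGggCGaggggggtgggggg
Cacng8: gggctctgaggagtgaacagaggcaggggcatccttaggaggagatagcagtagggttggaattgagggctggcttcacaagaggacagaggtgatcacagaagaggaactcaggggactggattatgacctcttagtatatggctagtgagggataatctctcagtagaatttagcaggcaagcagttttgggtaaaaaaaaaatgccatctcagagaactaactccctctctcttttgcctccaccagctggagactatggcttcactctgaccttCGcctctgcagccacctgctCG

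The Scn2b promoter holds 2 CpG and the Scn4b promoter 26, and 23.3% and 84.5% of all 32851 RefSeq promoters hold as few or fewer. The Cacng8 promoter holds 2 CpG and the Cacng7 promoter 15, which places them at 23.3% and 67.0% of all promoters. In both pairs the gene with the larger ratio of brain over heart has the window with fewer CpG. Among all 6 pairs of same-strand neighbours with no protein-coding gene between them and windows for both genes, 5 had this order, and Scn9a and Scn7a the opposite one. Scn10a and Scn11a were among the 5, though the intervals of their ratios, 0.493 to 0.675 and 0.644 to 0.966, overlapped. The pairs share genes, and the order is a description. The Cacng8 window enters the pairs with Cacng7 and with Cacng6. Starts were taken as annotated and not checked against these data, so a window, that of Cacng8 included, may not hold the promoter in use. How often neighbours show this order over all genes was not computed. Over the 41 windows found for 30 of the 40 genes the median was 9 CpG and 59.3% G and C, beside 7 CpG and 52.7% over all promoters. The letters GGGCGG, a binding word of Sp factors, were found on either strand in 16 of the 41 windows, or 39.0%, and in 35.7% of all promoters. TATAAA, searched on both strands like the other motifs, was found in 2 of 41 windows, or 4.88%, and in 13.6% of all. TCAGCACC, the left part of the RE1 element bound by the repressor REST, and CACGTG, the E-box, were found in 0 of 41 windows, and in 1.65% and 7.15% of all promoters. GGACAG, in the right part of RE1, was found in 7 of 41 windows, or 17.1%, and in 22.2% of all promoters. The Cacng8 window printed above is among the 7. A match or its absence in these windows is a property of the sequence and was not tied to a measured level.

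Of the 10 calcium channel alpha1 subunits, 5 were higher in brain and none in heart among the 8 with 20 CPM in a section. The 5 were Cacna1a, Cacna1b and Cacna1e, which form the P/Q-, N- and R-type channels of synapses, and the T-type genes Cacna1g and Cacna1i. Cacna1g and Cacna1i were not called with the total outside ribosomal, mitochondrial and small structured RNA, nor was Cacna1i with each spot weighing the same. Cacna1e had 20208 counts in brain and 2249 in heart, or 544 CPM in brain and 50.4 CPM in heart, 10.8-fold (10.3 to 11.3) higher in brain. Cacna1b had 171 CPM in brain and 16.03 CPM in heart, a 10.7-fold (9.87 to 11.5) difference, and Cacna1a had 277 CPM in brain and 38.8 CPM in heart, a 7.14-fold (6.79 to 7.52) difference. These 3 presynaptic genes ran at 15.99 to 16.4 times receptor density in brain and at 1.16 to 1.78 times in heart. Per kb of exon they ran at 8.01 to 16.9 times in heart. Within the brain the class had no single leading gene, since Cacna1c came first per kb of exon and Cacna1e per kb of span.

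Cacna1c, the L-type pore of heart muscle and of many neurons, was high in both sections. It had 23869 counts in brain and 50450 in heart, which gave 643 CPM (634 to 651) in brain and 1131 CPM (1121 to 1141) in heart. The heart value was 1.76-fold (1.73 to 1.79) that of brain, a difference beyond counting error but short of the 4-fold rule. In heart it alone made up 75.1% of the alpha1 class per kb of exon and 57.4% per kb of span. Its density was 15.7 times that of receptors in brain and 21.5 times in heart, where it was the highest of the 40 genes per kb of span and per kb of exon. Cacna1d, the other L-type gene of brain and of the pacemaker tissue of the heart, had 244 CPM in brain and 63.6 CPM in heart, 3.84-fold (3.68 to 4.01) higher in brain, just under the rule.

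The T-type genes, which open at low voltages and support rhythmic firing, were all higher in brain by their CPM. Cacna1i had 45.3 CPM in brain and 9.62 CPM in heart and a 4.71-fold (4.24 to 5.25) ratio. Its heart density was 1.001 times that of receptor genes per kb of span and 4.85 times per kb of exon. Cacna1g had 61.6 CPM in brain and 14.5 CPM in heart and a 4.25-fold (3.89 to 4.65) ratio, and Cacna1h 36.2 CPM in brain and 11.7 CPM in heart and 3.09-fold (2.80 to 3.43). Cacna1g and Cacna1h kept 2.54 and 2.27 times receptor density in heart. Per kb of exon, Cacna1d, Cacna1a, Cacna1e and Cacna1b stood above both of them in heart. Cacna1f, the L-type gene of photoreceptors, had 49 counts in brain and 318 in heart, or 1.32 CPM in brain and 7.13 CPM in heart. Cacna1s, the voltage sensor of skeletal muscle, had 4.44 CPM in brain and 8.43 CPM in heart, at 0.986 times receptor density in brain and 1.45 times in heart. Retina markers, 6 genes, summed to 6.95 CPM in brain and 8.36 CPM in heart, and their part in the Cacna1f value was not tested.

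The alpha2delta subunits, which are cleaved from a single precursor and raise the surface level of the pore, had 1 gene called for brain among the 3 that reached 20 CPM. Cacna2d3 had 19341 counts in brain and 3603 in heart, or 521 CPM in brain and 80.8 CPM in heart, 6.45-fold (6.22 to 6.68) higher in brain. In heart it stood at 1.14 times receptor density per kb of span and at 46.0 times per kb of exon. Lrtm1 lies inside Cacna2d3 on the opposite strand and had 132 counts in brain and 4709 in heart, so in heart the inner gene outnumbered the outer one. Cacna2d1, a target of gabapentin and the main alpha2delta of heart and skeletal muscle, had 387 CPM in brain and 209 CPM in heart, a 1.85-fold (1.80 to 1.90) ratio. It ranked first in heart with 57.7% of the class per kb of exon and 60.6% per kb of span, while in brain Cacna2d3 led per kb of exon and Cacna2d1 per kb of span. Cacna2d2, a further gabapentin-binding subunit, had 35.4 CPM in brain and 15.6 CPM in heart, 2.26-fold (2.06 to 2.49). Cacna2d4, a retinal subunit, had 10.5 CPM in brain and 10.3 CPM in heart, and its ratio of 1.02-fold (0.886 to 1.17) included 1 and turned sign when ribosomal, mitochondrial and small structured RNA were left out of the total and when each spot weighed the same.

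The calcium channel beta subunits, cytoplasmic proteins that bind the pore and aid its transport to the membrane, were all above 1 in the ratio of brain over heart, and 2 of the 3 with 20 CPM met the rule. Cacnb4 had 12048 counts in brain and 1437 in heart, or 324 CPM in brain and 32.2 CPM in heart, 10.1-fold (9.53 to 10.6) higher in brain, and it led the brain class on both length measures. Cacnb1, the subunit of skeletal muscle and also of brain, had 23.0 CPM in brain and 3.12 CPM in heart, 7.38-fold (6.16 to 8.89). Cacnb2, the main cardiac beta subunit, had 395 CPM in brain and 256 CPM in heart, a ratio of 1.54-fold (1.51 to 1.58). In heart Cacnb2 held 80.2% of the class per kb of exon and 61.1% per kb of span and stood at 7.69 times receptor density, against 1.67, 1.72 and 1.498 times for Cacnb1, Cacnb3 and Cacnb4. Cacnb3, a beta subunit of neurons and smooth muscle, had 15.6 CPM in brain and 2.04 CPM in heart; its 7.63-fold (6.11 to 9.62) ratio was over 4-fold, but it lay under 20 CPM in both sections and was not called.

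Cacna1c, Cacna2d1 and Cacnb2, which together form the cardiac L-type channel complex, were each first in their class in the heart section on both length measures. Their multiples of receptor density in heart ran from 5.49 for Cacna2d1 to 21.5 for Cacna1c. The 4-fold rule called none of these 3 genes for heart, and brain held them at 387 to 643 CPM.

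Of the 8 gamma subunits, 4 were higher in brain and none in heart among the 5 that reached 20 CPM in a section, and Cacng7 was not called with the total outside ribosomal, mitochondrial and small structured RNA. Cacng2, which encodes stargazin and carries AMPA receptors to the synapse, had 3445 counts in brain and 470 in heart, or 92.7 CPM in brain and 10.5 CPM in heart, 8.80-fold (7.99 to 9.72) higher in brain. Cacng8, an auxiliary AMPA receptor subunit prominent in hippocampus, had 55.9 CPM in brain and 3.03 CPM in heart, 18.5-fold (15.5 to 22.1), and led the class per kb on both length measures in brain. Cacng3, an auxiliary AMPA receptor subunit of cortex, had 56.2 CPM in brain and 8.94 CPM in heart, 6.29-fold (5.65 to 7.02), and Cacng7, a further regulator of AMPA receptors, 36.0 CPM in brain and 6.70 CPM in heart, 5.37-fold (4.73 to 6.11). Cacng4 and Cacng5, which also act on AMPA receptors, had 21.1 and 10.3 CPM in brain, with 7.42 and 3.83 CPM in heart.

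Cacng1, the gamma subunit of the skeletal muscle calcium channel, had 41 counts in brain and 66 in heart and a ratio of brain over heart of 0.746-fold (0.493 to 1.12), and Cacng6, a related subunit of striated muscle, had 74 counts in brain and 82 in heart and 1.08-fold (0.781 to 1.503). Both intervals include 1, and the sign turned for Cacng1 when each spot weighed the same and for Cacng6 with the total outside ribosomal, mitochondrial and small structured RNA. At these counts no difference between the sections was detectable for either.

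Genes of proteins that work with the channels were taken from lists drawn up by their known roles. Of 36 genes that anchor, modify or bind the channels, 16 of the 24 with 20 CPM were higher in brain and 2 in heart. Of all 6345 features with 20 CPM in either section, 17.2% were higher in brain and 5.41% in heart, so the heart count lay near that share. The median log2 ratio of the 36 was 1.70, beside 0.43 over features averaging 5 CPM or more, a floor that was not set for the 36. Of the 16 sodium channel partners 7 were higher in brain and 0 in heart. Fgf14, a fibroblast growth factor homologue that binds the sodium channel tail, had 1321 CPM in brain and 145 CPM in heart, 9.12-fold (8.89 to 9.36) higher in brain. Its relative Fgf12 had 729.7 CPM in brain and 119 CPM in heart, 6.14-fold (5.97 to 6.33). Ank3, which encodes the ankyrin that holds sodium channels at the axon initial segment, had 859.9 CPM in brain and 172 CPM in heart, 4.99-fold (4.87 to 5.12). Fgf13, of the same family, was the other way round, with 131 CPM in brain and 446 CPM in heart, 3.40-fold (3.30 to 3.51) higher in heart, which is under the 4-fold rule.

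Of the 20 calcium channel partners 9 were higher in brain and 2 in heart. Rims1 and Rims2, which tether presynaptic calcium channels to vesicle release sites, had 626 and 452 CPM in brain, against 48.6 and 42.7 CPM in heart. The 2 heart genes were Jph2, which encodes the junctophilin that holds the L-type channel close to the sarcoplasmic reticulum, and Ahnak, a large protein that binds the beta subunit. Jph2 had 4.12 CPM in brain and 118 CPM in heart, 28.6-fold (24.3 to 33.8) higher in heart, and Ahnak 38.0 CPM in brain and 467 CPM in heart, 12.3-fold (11.6 to 13.0). Of 11 related cation channel genes, 3 of the 4 with 20 CPM were higher in brain, all of them parts of the NALCN sodium leak complex: Nalf1 with 1499 CPM in brain and 52.2 CPM in heart, Unc80 with 283 CPM in brain and 21.9 CPM in heart and Unc79 with 266 CPM in brain and 30.3 CPM in heart. Nalcn itself, the other gene with 20 CPM, had 154 CPM in brain and 60.4 CPM in heart. Its 2.56-fold (2.44 to 2.68) ratio was under the rule.

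Spots of each section were grouped by Leiden clustering of variable genes. The channel genes, their partners, all marker lists, and genes of ribosomal, mitochondrial and small structured RNA had been taken out. Genes of ribosomal proteins had not. The counts of a channel gene therefore did not place a spot in a group. Genes that overlap channel genes, such as Lrtm1 in Cacna2d3, were not taken out, and reads of such pairs may be shared. Lrtm1 was a leading gene of heart region 2. The clustering gave 11 regions in brain and 5 in heart, which are called by number and by their leading genes. A spot can hold several cells, and spots of 1 section are not replicates. A gene was called for a region when its CPM there was at least 2-fold that of the rest of the section with at least 50 counts in the region. In brain 19 of 40 channel genes were called for at least 1 region, where 15.1% of 18399 features with 50 counts in the section were. In heart 20 of 40 were called, where 14.8% of 19915 features were. A call needs 50 counts in 1 region, so features near 50 counts in the section could rarely be called. Most channel genes lay well above that floor, and the features were not matched to them in counts or length. The counts of channel genes and the shares of features are therefore not like for like, here and for the regional rules below. The 6 largest region ratios of each section were named by rule, and the other regional values below were chosen after they had been seen.

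**Figure D3:**
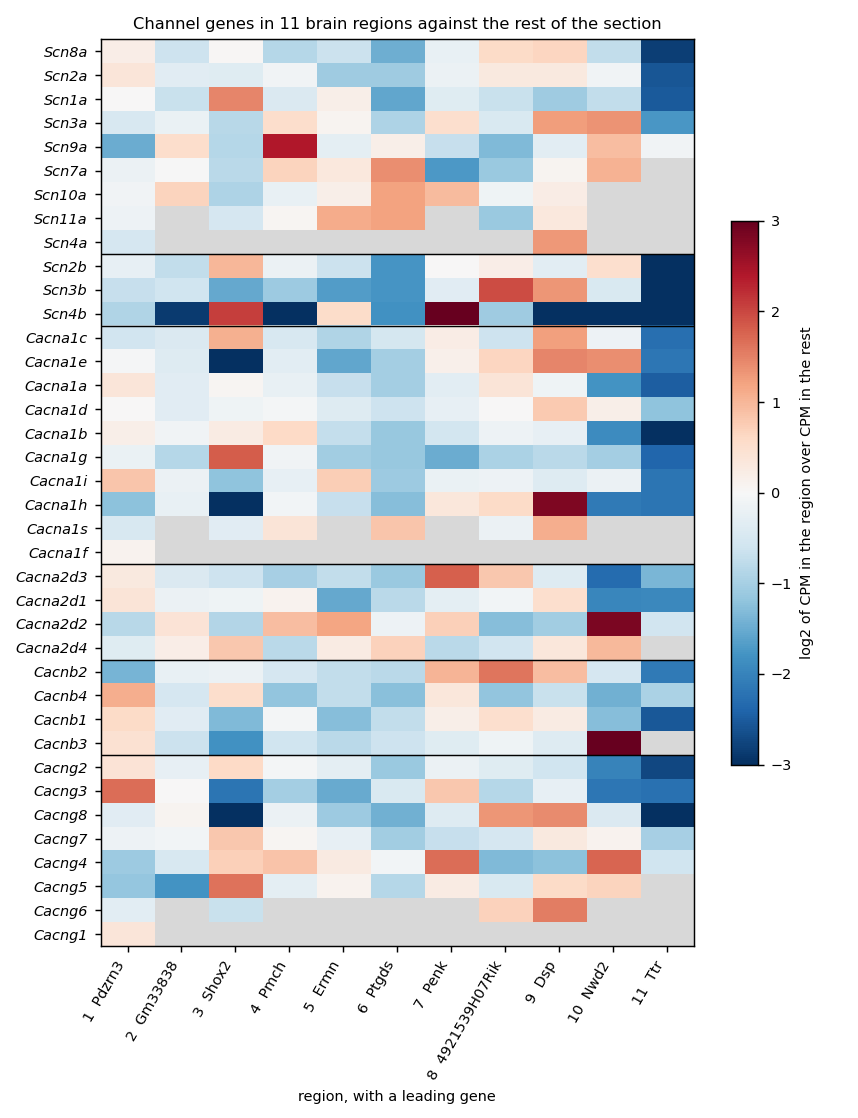
CPM of 38 channel genes in each of 11 brain regions over their CPM in the rest of the brain section, as log2 (colour scale from -3 to 3, values beyond it shown at its ends), with rows grouped by subunit class. Grey fields hold fewer than 10 counts both observed and expected. The darkest red fields are Scn4b in region 7, Cacnb3 and Cacna2d2 in region 10, Cacna1h in region 9 and Scn9a in region 4.

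Region 3, led by Shox2, Prkcd and Synpo2, held 654 spots and had 4453 CPM of a list of thalamus markers, 4.53-fold the rest of the section. Cacna1g, whose T-type current drives burst firing of thalamic relay neurons, had 160.4 CPM there and 45.2 CPM in the rest of the section, 3.55-fold (3.26 to 3.87) higher. Scn1a had 404 CPM there and 145 CPM in the rest of the section, 2.78-fold (2.64 to 2.92), and Scn4b 62.9 CPM there and 14.9 CPM in the rest of the section, 4.22-fold (3.65 to 4.86). Cacna1c was called there as well, with 1166 CPM there and 556 CPM in the rest of the section. Several genes were low in the same region. Cacna1e had 74.0 CPM there and 622 CPM in the rest of the section, a ratio of 0.119-fold (0.107 to 0.132), Cacna1h 4.92 CPM there and 41.4 CPM in the rest of the section, 0.119-fold (0.0774 to 0.175), and Cacng8 7.95 CPM there and 63.8 CPM in the rest of the section, 0.125-fold (0.0896 to 0.169). The T-type genes thus divided by region, with Cacna1g high and Cacna1h low in region 3. Cacna1i, the third T-type gene, had 21.4 CPM there and 49.3 CPM in the rest of the section.

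Region 7, with Penk and Drd2 among its leading genes, held 164 spots and 3041 CPM of striatum markers, 5.95-fold the rest. Scn4b had its highest level of the section in this region, 146 CPM, against 17.7 CPM in the rest, 8.23-fold (6.91 to 9.77) higher, the largest regional ratio of any channel gene in brain. Regions 3 and 7, together with region 5 at 31.2 CPM, stood above the other 8 regions, which had between 0 and 13.7 CPM of this gene. Cacna2d3 had 1664 CPM there and 484 CPM in the rest of the section, 3.44-fold (3.28 to 3.60), and Cacnb2 778 CPM there and 383 CPM in the rest of the section, 2.03-fold (1.90 to 2.17). Cacng4 was called there too, with 63.1 CPM there and 19.7 CPM in the rest of the section.

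Region 4, led by Pmch, Avp and Dlk1, held 642 spots and 1220 CPM of hypothalamus markers, 6.68-fold the rest. Scn9a had 88.3 CPM there and 16.7 CPM in the rest of the section, 5.30-fold (4.66 to 6.03) higher. Its overlapping antisense gene Gm13629 had 30.3 CPM in region 4 and was highest in region 3, at 92.8 CPM, where Scn9a had 15.3 CPM. Scn4b was low in region 4, with 2.47 CPM there and 24.6 CPM in the rest of the section, 0.101-fold (0.0517 to 0.177).

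Regions 8 and 9 carried hippocampus markers at 698 and 712 CPM, 2.99-fold and 2.74-fold the rest. Region 8 was led by 4921539H07Rik, Neurod6 and Ctxnd1 and held 131 spots, and region 9 was led by Dsp, Maml2 and Slc29a4 and held 59. Scn3b had 131 CPM in region 8 and 33.6 CPM in the rest, 3.91-fold (3.54 to 4.31), and Cacnb2 939 CPM in region 8 and 310.1 CPM in the rest, 3.03-fold (2.92 to 3.14). In region 9 Cacna1h had 170.4 CPM there and 24.5 CPM in the rest of the section, 6.95-fold (6.22 to 7.77) higher, and the next highest region, region 8, had 50.4 CPM. Cacna1e had 1309 CPM there and 477 CPM in the rest of the section, 2.74-fold (2.65 to 2.84), and Cacna1c 1353 CPM there and 581 CPM in the rest of the section, 2.33-fold (2.25 to 2.41). Cacng8 was called in both regions, with 117 CPM in region 8 and 131 CPM in region 9, beside 49.3 CPM in the section outside region 9.

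Region 10, led by Nwd2, Lrrc55 and Ano1, had only 30 spots. Cacnb3 had 108 CPM there and 13.2 CPM in the rest of the section, 8.17-fold (6.52 to 10.1), and Cacna2d2 216 CPM there and 30.7 CPM in the rest of the section, 7.05-fold (6.04 to 8.19). In no other region did Cacnb3 exceed 19.01 CPM. Cacna1e was also high, at 1379 CPM, and Scn3a at 179 CPM. Receptor density in region 10 was 1.38-fold that of the rest, in region 9 1.45-fold, and in region 6, led by Ptgds, Aebp1 and Slc6a13, 2.22-fold. When each region's own receptor density was subtracted, an alternative added after the data were seen, 21 channel genes were called in brain, where 15.9% of 17952 features were, and all 19 genes of the first count kept a called region.

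Region 1, the largest with 1009 spots, was led by Pdzrn3, Hs3st2 and Mef2c. Cacng3 had 104 CPM there and 32.5 CPM in the rest of the section, 3.21-fold (2.93 to 3.51), and Cacnb4 501 CPM there and 237 CPM in the rest of the section, 2.12-fold (2.04 to 2.19). Cacnb2, in contrast, had 189 CPM there and 498 CPM in the rest of the section, so the beta subunits Cacnb4 and Cacnb2 lay on opposite sides of the section average there. Region 5, led by the myelin-associated genes Ermn and Mobp with Tmem88b, had 76.8 CPM of Cacna2d2 and 33.6 CPM in the rest. Oligodendrocyte and myelin markers had 4749 CPM in region 5, 10.2-fold the rest. Inhibitory neuron markers had 745 CPM there, 3.31-fold the rest, while the list of general neuron markers was 0.660-fold the rest. The part of these cells in the Cacna2d2 value was not tested. Region 11, led by Ttr, had the lowest sum of channel genes, 1355 CPM. The region sums reached 7199 CPM in region 9, beside 6651 CPM in region 7. Ribosomal, mitochondrial and small structured RNA took 24.6% of counts in region 9, 36.2% in region 7 and 50.2% in region 11. These sums are scaled to a total that includes this RNA, which bears on their order.

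**Figure D4:**
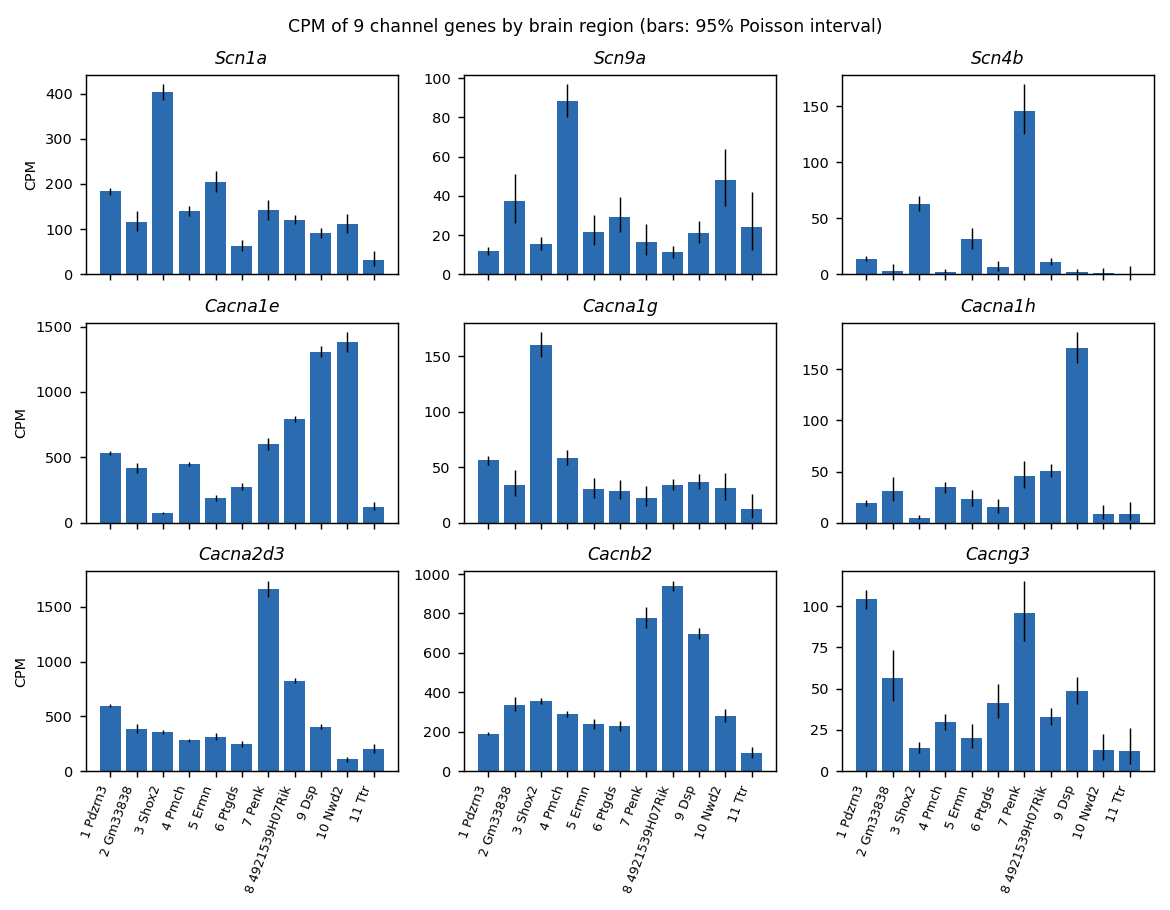
CPM of 9 channel genes in 11 brain regions, each named by number and a leading gene, with 95% Poisson intervals for counting error. Scn1a and Cacna1g peak in region 3, Scn9a in region 4, Scn4b and Cacna2d3 in region 7, Cacnb2 in region 8, Cacna1h in region 9, Cacna1e in region 10 and Cacng3 in region 1.

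In heart most regional calls lay in 1 region. Region 5, led by the haemoglobin genes Hba-a1, Hbb-bs and Hbb-bt, held 371 spots, and 17 of the 20 called genes were called there, among them the 6 with the largest ratios. Cacng2 had 32.0 CPM there and 9.16 CPM in the rest of the section, 3.50-fold (2.73 to 4.43), Scn8a 52.9 CPM there and 15.9 CPM in the rest of the section, 3.32-fold (2.75 to 3.99), and Cacna2d4 28.7 CPM there and 9.16 CPM in the rest of the section, 3.13-fold (2.42 to 4.01). Cacna1i had 26.1 CPM there and 8.56 CPM in the rest of the section, 3.04-fold (2.32 to 3.94), Cacng3 24.2 CPM there and 7.97 CPM in the rest of the section, 3.04-fold (2.29 to 3.97), and Scn10a 28.7 CPM there and 9.97 CPM in the rest of the section, 2.88-fold (2.22 to 3.67). Receptor genes moved with them: their density in region 5 was 2.62-fold (2.56 to 2.69) that of the rest, and 35 of the 40 channel genes lay under 2 times the region's own receptor density per kb of span. With receptor density per kb of span subtracted in each region, 8 channel genes were called in heart. Of these, 7 had been called in the same region before, and 6.62% of 19445 features were called by this rule. Region 5 then had 2 called genes, Cacna1a and Cacna1e. Receptor density per kb of exon was not subtracted by region, so how far these calls depend on the length used was not tested.

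Region 4 was led by Prg4, Dkk3 and Myl7, held 377 spots and had 479 CPM of atrial markers, 4.79-fold the rest, and 561 CPM of fibroblast and matrix markers, 3.01-fold the rest. Conduction system markers were 1.94-fold the rest there, and lists of brain regions were as high, with choroid plexus markers 2.09-fold and striatum markers 1.95-fold the rest. The T-type genes Cacna1g and Cacna1h were called in region 4. Cacna1h had 24.3 CPM there and 8.53 CPM in the rest of the section, 2.86-fold (2.39 to 3.41), and Cacna1g 28.5 CPM there and 10.97 CPM in the rest of the section, 2.60-fold (2.21 to 3.05). Cacna1d, an L-type gene of atrium and pacemaker cells, had 109.5 CPM there and 52.0 CPM in the rest of the section, 2.11-fold (1.95 to 2.28). Scn7a had 58.2 CPM there and 25.8 CPM in the rest of the section, 2.25-fold (2.02 to 2.51), and Cacna2d2 31.6 CPM there and 11.6 CPM in the rest of the section, 2.72-fold (2.33 to 3.17). Receptor density in region 4 was 1.69-fold that of the rest, so these values were also taken above it: Cacna1h then had 16.7 CPM in region 4 and 4.0003 CPM in the rest, Cacna1g 20.04 CPM in region 4 and 5.96 CPM in the rest, Cacna1d 51.6 CPM in region 4 and 17.7 CPM in the rest, Scn7a 43.9 CPM in region 4 and 17.3 CPM in the rest and Cacna2d2 14.97 CPM in region 4 and 1.74 CPM in the rest. All 5 were at least 2-fold higher in region 4 on that scale too.

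The cardiac L-type subunits were spread over the section. Cacna1c had 941, 1301, 979 and 1088 CPM in regions 1 to 4 and 471 CPM in region 5, where it was 0.401-fold (0.379 to 0.424) the rest. Region 5 was thus the low one for Cacna1c. Cacnb2 ranged from 172 CPM in region 5 to 309 CPM in region 4, and Cacna2d1 from 156 CPM in region 5 to 228 CPM in region 2. Scn4b lay between 6.84 and 9.45 CPM in all 5 regions. Cardiomyocyte markers were lowest in region 5, at 9090 CPM; their part in the lower Cacna1c value there was not tested.

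**Figure D5:**
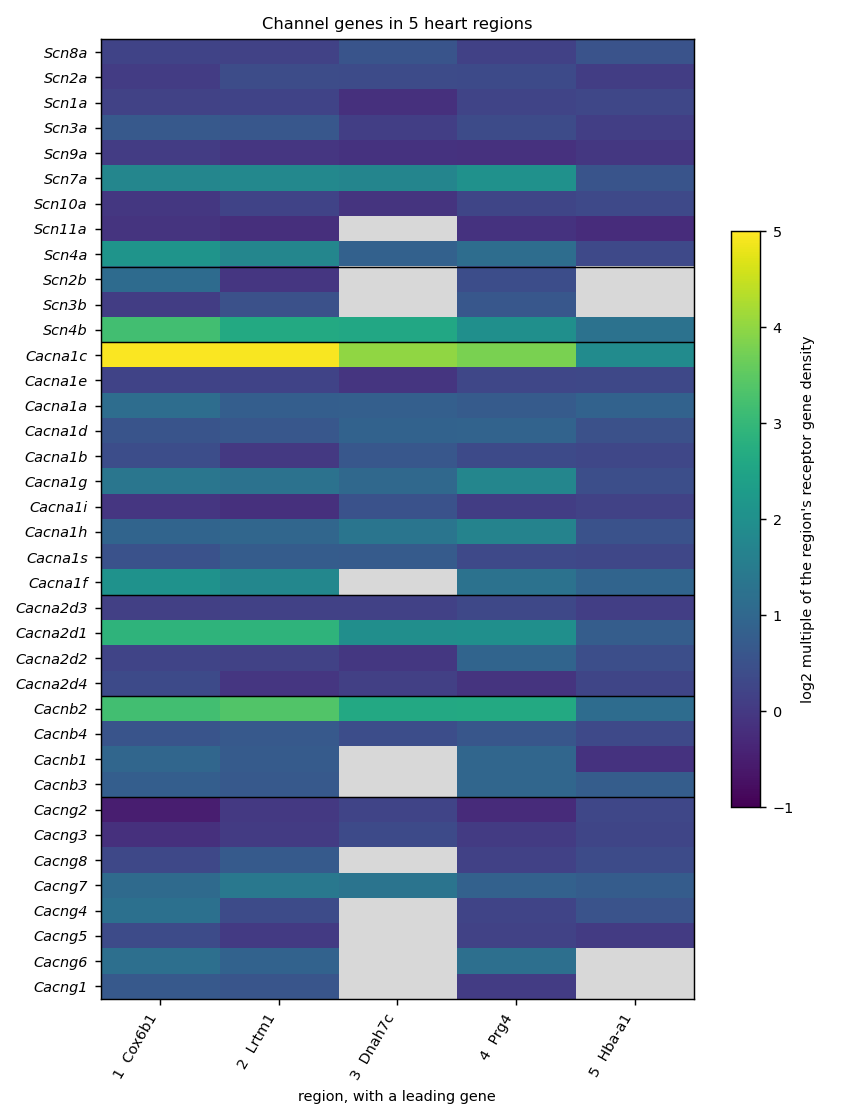
Counts per kb of span of 38 channel genes in each of 5 heart regions, as the log2 multiple of the region's own receptor gene density (colour scale from -1 to 5, values beyond it shown at its ends), with rows grouped by subunit class. Grey fields hold fewer than 10 counts both observed and expected. The bright rows are Cacna1c, Cacna2d1, Cacnb2 and Scn4b, while most neuronal subunits lie near 0 in every region.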

How the data were processed

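The deposited files hold, for each section, a sparse matrix of whole-number counts per feature and barcode, not normalized by the authors, with lists of 40276 features and 4992 barcodes. Per the submitters' processing notes, reads were processed with STARsolo against build mm39; its version, and whether molecular tags were merged, introns counted or strand used, are not given in the sources used here. Gene lengths, biotypes and overlaps were looked up by ID in GENCODE mouse release M21, an older build, where all 40 members were found; none of its coordinates is given. Promoters came from the RefSeq table on GRCm38.p6.

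Counts were summed over spots with at least 500 counts and 200 features and scaled to CPM. Levels have exact Poisson intervals and ratios exact conditional binomial intervals, at 95% and for counting error only; log2 ratios used 0.5 added counts. The calculation of ratio intervals was run on simulated Poisson counts. This checks the calculation only, and cannot show whether the real counts vary as Poisson counts do. A feature was higher in a section at 4-fold and 20 CPM. Spots were clustered with scanpy 1.11.5 and leidenalg 0.10.2 on 2000 variable genes, 20 principal components and 15 neighbours at resolution 0.6. The members, partners, markers, and genes of ribosomal, mitochondrial and small structured RNA were left out. Leading genes of a region had at least 50 CPM and 100 counts in it. From each partner list the 3 called genes with the highest CPM per direction were named, with any gene at least 2-fold against the list's direction. Tissue markers formed 26 lists. Doublet callers do not apply to spots; spot positions and images were not used. Alternatives covered the total used for scaling, the spot threshold, the weight of spots, subtraction of receptor density, the size rules and the clustering. The members and lists were chosen with earlier results of these data known. The samples have no replicates, so no test was made. Results of some genes, 2 members among them, are not reported here.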

Additional observations from a re-analysis of the deposited data

Results flagged for a closer look

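Channel gene counts were also present in the barcodes that fell below the threshold for a spot and entered no comparison. In brain these barcodes held 634 counts of the 40 genes, or 4039 CPM (95% Poisson interval 3731 to 4366) of their own counts, beside 5080 CPM in kept spots. In heart they held 485 counts, or 3132 CPM (2860 to 3424), beside 2245 CPM in kept spots. Channel genes thus took a smaller share below the threshold than above it in brain, and a larger share in heart. With all barcodes included, 19 genes were higher in brain and 1 in heart, the same genes as with kept spots alone.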

How the results depend on the processing

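No paired analysis was possible because each tissue has 1 library. The count of 19 channel genes higher in brain was 16 with the total outside ribosomal, mitochondrial and small structured RNA (15 of them shared, without Cacna1g, Cacna1i, Cacng7 and Scn3a and with Cacnb3), 18 with each spot weighing the same (without Cacna1i), 22 with receptor density per kb of span subtracted, and 25 at 2-fold. The single gene higher in heart became 2 genes with the other total, with receptor density per kb of span subtracted and at 2-fold, with Scn7a the gene added each time, and 3 genes with 20 counts in place of 20 CPM, which added Cacna1f and Scn4a. That floor also gave 5 partner genes higher in heart instead of 2. The median log2 ratio of the 40 genes, 2.01, was 1.46 with the other total, 1.67 with equal weights, 3.78 with receptor density per kb of span subtracted and 2.13 per kb of exon; over all features these settings gave -0.31, 0.40, 0.81 and 0.49. Per kb of span instead of exon, Cacna1c made up 57.4% of its class in heart, while Scn2a made up 31.2% and Scn2b 55.7% of theirs in brain. Regional calls rested more on the settings. In brain 29 genes were called at 1.5-fold instead of 19. In heart 12 were called with at least 100 counts and 8 with receptor density per kb of span subtracted, instead of 20. Shares of all features are given above for the main rules and for the regional subtraction only. Counts of called genes under the other changed rules have no such share beside them. None of the 20 channel genes called between the sections changed the sign of its ratio under these settings; signs of partner genes and regional calls were not compared. With 1 library per tissue, differences between animals or sections cannot be told from those between tissues.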
